A study of Mus musculus with 16 samples.

Results

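The genes described here are 49 genes of G2 and mitosis, the last stages of the cell cycle, followed in lineage-depleted bone marrow of 16 mice by single-cell RNA sequencing. The members were taken by their symbols, and all 49 were found among the 27998 genes counted in each of the 8 libraries. WT mice carried Tet2fl/fl without Cre, and *Tet2*-KO mice carried Tet2fl/fl with Vav-Cre, which deletes *Tet2* throughout the blood system, so the floxed allele was shared by every group. All were C57BL/6 mice labelled 6-12 weeks old, injected intraperitoneally each day for 5 weeks with 500 ng of recombinant IL1β or with vehicle, 4 mice per group. Each library pooled 2 mice of the same group, told apart by hashtag antibodies, so the 4 mice of a group shared 2 libraries.

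A cell that commits to division raises cyclin-dependent kinase 1, encoded by *Cdk1*, with its cyclins A2, B1 and B2. Aurora and polo-like kinases, kinesins and microtubule factors then build the spindle, condensins and topoisomerase II compact the chromosomes, and kinetochores tie them to the microtubules. The anaphase-promoting complex, an ubiquitin ligase that *Cdc20* activates and *Ube2c* supplies with ubiquitin, ends the phase by destroying cyclin B and securin. Most of these genes are transcribed late in the cycle under B-MYB, FOXM1 and the MuvB complex, which act through the cell cycle homology region (CHR), while the factor NF-Y binds CCAAT boxes. In marrow, long-lived stem cells are largely quiescent, and committed erythroid and myeloid precursors divide often.

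The promoters were read from the RefSeq windows on GRCm38.p6, which matched 42 of the 49 genes, over the 120 bases before each annotated start. The CHR was searched as TTTGAA or TTTAAA and the CCAAT box as CCAAT, each on both strands. A CHR word stood in 17 of the 42 windows (40.48%), against 11.87% of 27025 promoters of all genes. CCAAT stood in 32 (76.19% against 22.11%), and both words in 15 (35.71% against 2.564%). A match is a run of letters and no evidence of binding. The 9 windows below belong to genes that carry the IL1β and genotype results, written 5′ to 3′ on the gene's strand, with both words in capitals on whichever strand they lay. *Top2a*, *Ube2c*, *Kif11* and *Lbr* carry the CHR word in reverse orientation, those of *Cks2* and *Ncapd2* hold no CHR word, and that of *Birc5* holds neither word.
Birc5 (chr11:117849117-117849236, plus strand): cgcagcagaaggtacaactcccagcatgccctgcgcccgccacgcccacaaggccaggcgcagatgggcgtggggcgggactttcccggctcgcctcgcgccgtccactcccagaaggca
Cdk1 (chr10:69352913-69353032, minus strand): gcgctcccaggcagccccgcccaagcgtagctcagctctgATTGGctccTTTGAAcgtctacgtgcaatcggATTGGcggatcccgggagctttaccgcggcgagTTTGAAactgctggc
Cks2 (chr13:51645112-51645231, plus strand): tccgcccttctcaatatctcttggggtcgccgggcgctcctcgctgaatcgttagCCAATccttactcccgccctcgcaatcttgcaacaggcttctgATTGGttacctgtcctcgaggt
Cenpa (chr5:30666766-30666885, plus strand): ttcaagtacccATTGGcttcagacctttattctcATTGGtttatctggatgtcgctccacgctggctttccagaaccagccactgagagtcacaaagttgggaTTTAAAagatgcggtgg
Ube2c (chr2:164769809-164769928, plus strand): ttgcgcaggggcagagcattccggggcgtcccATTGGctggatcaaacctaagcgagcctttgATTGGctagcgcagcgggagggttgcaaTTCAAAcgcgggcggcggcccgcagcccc
Top2a (chr11:99024190-99024309, minus strand): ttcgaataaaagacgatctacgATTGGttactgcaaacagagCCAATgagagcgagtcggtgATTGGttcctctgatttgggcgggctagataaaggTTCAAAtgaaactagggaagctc
Kif11 (chr19:37376262-37376381, plus strand): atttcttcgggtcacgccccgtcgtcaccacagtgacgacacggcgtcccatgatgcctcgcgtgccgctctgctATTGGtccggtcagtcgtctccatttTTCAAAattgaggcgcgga
Ncapd2 (chr6:125191587-125191706, minus strand): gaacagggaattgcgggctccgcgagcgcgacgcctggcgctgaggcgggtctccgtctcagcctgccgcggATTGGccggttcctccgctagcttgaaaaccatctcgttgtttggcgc
Lbr (chr1:181842402-181842521, minus strand): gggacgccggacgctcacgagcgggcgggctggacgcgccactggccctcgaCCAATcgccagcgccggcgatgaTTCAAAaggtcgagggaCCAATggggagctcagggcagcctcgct

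The libraries held 56010493 to 99197115 UMIs, unique molecular identifiers that count single RNA molecules, over 11555 to 19573 barcodes. After removal of barcodes with under 750 genes or over 10% mitochondrial UMIs, 94917 cells remained, with a median of 4436 to 7363 UMIs per library, and 11 to 57 barcodes were shared between any pair of libraries. Cell types were gated by marker genes, and 80412 cells (84.7%) entered 1 of 18 gates, each but one led by 3 or more of its own markers. The exception was the gate for immature myeloid progenitors, whose leading genes were *Cd34*, *Sox4*, *Adgrg1*, *Adgrl4* and *Ctla2a*, so its name is that of the gate only. Cells entered each gate by UMIs of its own markers, so the lead of these markers was largely fixed in advance. It does not test the names of the gates. The hashtags tied 57896 cells to a mouse, of which 49364 were gated. Cells left without a mouse had the higher summed level of the 49 genes in all 8 libraries, for example 10604 against 7323 counts per 1000000 UMIs (CPM) in the *Tet2*-KO vehicle library of mice 3 and 4, and they included most erythroblasts, of which 1687 of 9733 were assigned. Counts of calls under a looser hashtag rule are therefore given for IL1β against vehicle over all gates and in the HSC-like, granulocyte progenitor, erythroid and NK and T gates, and the part of this loss in any difference was not tested. Hashtag calls were also mixed. In the library of WT IL1β mice 3 and 4, whose mice differed in *Xist*, the RNA made by the inactive X of female cells, 16.9% of granulocyte progenitors, 30.9% of basophils, 29.5% of monocyte-primed progenitors, 27.0% of CFU-E and 12.2% of HSC-like cells called to mouse 3 held it, against 97.7% to 100% of those called to mouse 4. The looser rule put mouse 3 at 15.2%, 25.3%, 27.0%, 17.2% and 10.2% in the same types. The part of this mixing in any result was not tested.

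Across the marrow, the 49 genes together were highest in erythroblasts, haemoglobin-making red cell precursors, and lowest in plasma-like cells, with HSC-like cells next to the bottom. The summed level, which is the share of a mouse's UMIs in a cell type that fell on the 49 genes, was 11528 ± 684 CPM in erythroblasts (SD, n = 15 mice with at least 10 cells). It was 5868 ± 1780 CPM in HSC-like cells (n = 16) and 3941 ± 1136 CPM in plasma-like cells (n = 16). Between these ends lay monocytes at 9895 ± 981 CPM, basophils at 9376 ± 1012 CPM, CFU-E, the erythroid colony-forming progenitors, at 8389 ± 427 CPM, NK and T cells at 8078 ± 2592 CPM and granulocyte progenitors at 6576 ± 678 CPM. In the order of the 18 types, the gaps of 1632 CPM below erythroblasts and of 1927 CPM below HSC-like cells exceeded the larger SD of the 2 neighbours, and no other gap between neighbours did. *Hmgb2*, which encodes a chromatin protein that bends DNA and is also made outside mitosis, supplied 3345 CPM of the monocyte sum. With *Hmgb2* left out, erythroblasts (8468 ± 590 CPM), HSC-like cells (4245 ± 1328 CPM) and plasma-like cells (2801 ± 864 CPM) kept their ranks. The looser hashtag rule, which assigned 87192 cells, put erythroblasts at 12575 ± 740 CPM.

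**Figure D1:**
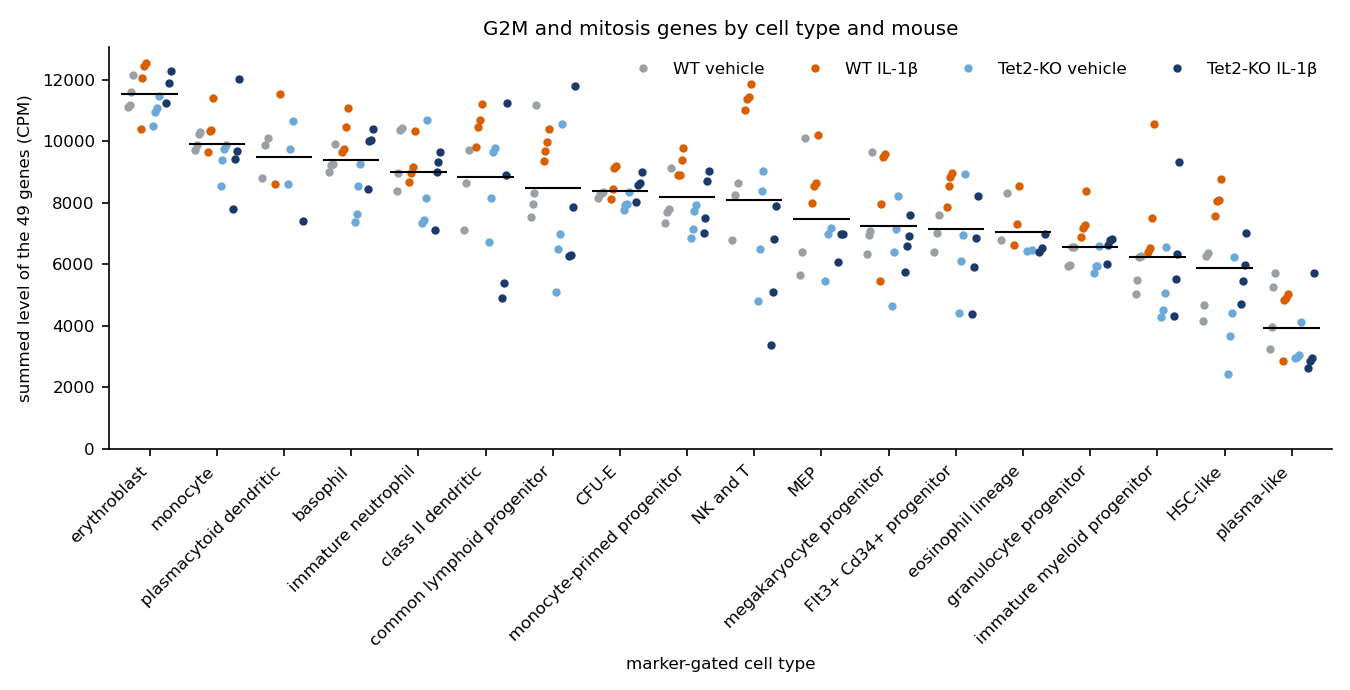
Summed level of the 49 genes in CPM (vertical axis, from 0) for each mouse with at least 10 cells, in 18 marker-gated cell types ordered by their mean. Each point is 1 mouse coloured by group and each bar the mean over mice. Erythroblasts stand at the top with a mean of 11528 CPM and plasma-like cells at the bottom with 3941 CPM.

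Single genes followed this order in part. Of the 49, 29 were highest in erythroblasts, 8 in plasmacytoid dendritic cells, and 3 each in basophils and monocytes, while 44 were lowest in plasma-like cells. *Mki67*, whose product Ki-67 coats mitotic chromosomes and marks dividing cells, stood at 947 ± 73.9 CPM in erythroblasts, 358 ± 128 CPM in HSC-like cells and 257 ± 87.3 CPM in plasma-like cells. Over the 18 types, the level of each gene was set beside the summed level of the others as a description. *Gtse1* (r = 0.94), *Spc25* (r = 0.93) and *Tpx2* (r = 0.93) followed it most closely and *Ckap2l* least (r = 0.34), across types whose values come from the same mice and libraries.

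Shares of cells were taken after thinning to 1500 UMIs, which left out cells with fewer. The share with at least 10 UMIs of the 49 genes, averaged over mice, was 93.6% in erythroblasts, 55.6% in monocytes, 41.6% in granulocyte progenitors, 24.7% in HSC-like cells and 10.5% in plasma-like cells. Without thinning the shares were 99.9%, 80.5%, 94.9%, 34.2% and 18.4%, at median depths of 12414, 4504, 8014, 2885 and 2490 UMIs. Plasma-like cells were the lowest gate and are set beside the HSC-like share. They were picked by that rank and are cells, not empty droplets, with 10.5% at 10 UMIs or more. Their share therefore does not measure free RNA. At a cut of 2 UMIs the thinned shares were 75.6% in HSC-like and 49.2% in plasma-like cells, and at that cut free RNA and low expression cannot be told apart.

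Chronic IL1β raised some of the 49 genes and lowered others, in WT and *Tet2*-KO mice alike. UMIs were summed per mouse and cell type and tested by the quasi-likelihood method of edgeR, with p adjusted over all genes of a type (Benjamini-Hochberg) and calls at an adjusted p under 0.05. In 16 types with enough mice this gave 719 tests of members per comparison. In WT mice 44 tests of 27 genes in 7 types were called (6.12%), 32 up and 12 down with IL1β, against 9.18% of all genes tested. The *Tet2*-KO comparison likewise called 44 tests, of 24 genes in 8 types (6.12%), with 27 up and 17 down, against 12.6% of all genes. Both member shares lay below the share over all genes. The median log2 fold change of the members was 0.17 in WT and 0.03 in *Tet2*-KO mice, and 501 and 403 of the 719 were positive. The median in *Tet2*-KO mice had no stable sign, from -0.037 without vehicle mouse 1 to 0.125 without IL1β mouse 2, and was 0.0025 under the looser hashtag rule. Of the pairs of gene and type called, 15 were shared by both genotypes, all with the same sign. No such count over all genes was set beside it, so it is not a trait of the members. The comparisons of the 2 genotypes use different mice.

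The counts moved with the way mice were identified and with single mice. Shares of all genes called under these other settings are not given, here or below. Whether the members moved more than other genes therefore cannot be read from the counts. Under the looser hashtag rule there were 76 calls in WT mice (56 up, 20 down) and 68 in *Tet2*-KO mice (30 up, 38 down), so that the split in *Tet2*-KO mice turned. It also turned by DESeq2 (17 up, 18 down). Taking the 2 libraries of a group as the replicates left 8 and 11 calls. In WT mice 20 calls were left without IL1β mouse 3, 27 without vehicle mouse 1 and 25 without vehicle mouse 3. The count in *Tet2*-KO mice was 24 without vehicle mouse 3 (11 up, 13 down) or vehicle mouse 4 (16 up, 8 down), 27 without IL1β mouse 3 (14 up, 13 down), 36 without IL1β mouse 4 (15 up, 21 down) and 62 without vehicle mouse 1 (19 up, 43 down). Whichever mouse was omitted, 14 of the 44 calls in WT and 12 of the 44 in *Tet2*-KO mice were made. The 14 in WT mice were *Birc5*, *Ccnb2*, *Cenpa* and *Cks2* in CFU-E, *Birc5* and *Ccnb2* in erythroblasts, *Aurka*, *Cenpe*, *Ckap2*, *Cks2*, *Kif2c* and *Ncapd2* in granulocyte progenitors, *Kif11* in monocyte-primed progenitors and *Knstrn* in basophils. The 12 in *Tet2*-KO mice were *Birc5*, *Cdca8*, *Cdk1*, *Cenpe*, *Kif11*, *Kif2c*, *Ncapd2* and *Rangap1* in granulocyte progenitors, *Birc5* in CFU-E, *Kif11* in HSC-like cells, *Ncapd2* in monocytes and *Cks2* in NK and T cells.

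By role, the calls differed in direction, though several directional shares lay near or below those over all genes. The tests of a role repeat its genes over types of the same mice. Over all genes, 3.6% of tests were called higher and 5.57% lower in WT mice, and 5.5% and 7.11% in *Tet2*-KO mice. The kinesins and cytokinesis factors were called only higher, in 8 of 71 tests in WT (11.3%) and 6 in *Tet2*-KO mice (8.45%), all in *Kif11*, *Kif23* and *Kif2c*, motors of spindle assembly, cytokinesis and kinetochore microtubules. The spindle and microtubule factors were likewise called only higher (6 and 4 of 153 tests, 3.92% and 2.61%), as were the mitotic kinases and checkpoint genes (4 and 2 of 80, 5.0% and 2.5%, *Nek2* in both genotypes). Genes of chromosome structure and the nuclear envelope were higher in 9 and 10 of 141 tests (6.38% and 7.09%) and lower in 0 and 2. The chromosomal passenger complex, which corrects kinetochore attachments, was called only lower, in 4 of 48 tests of each genotype (8.33%), in *Birc5*, *Cdca8* and *Aurkb*. Cyclins, *Cdk1* and their partners were lower in 6 of 89 tests of each genotype (6.74%), in *Ccnb2*, *Cdk1* and *Cks2*, and higher in 2 tests in WT mice, those of *Ccna2* and *Cdc25c*. Centromere and kinetochore genes were higher in 3 and 4 of 105 tests (2.86% and 3.81%) and lower in 2 and 2. *Cdc20* and *Ube2c* had no call in WT mice, while 1 call upwards and 3 downwards were made in *Tet2*-KO mice.

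Some members kept their sign, whether called or not, across types that share mice and libraries. Over all genes, 49.7% to 54.7% of log2 fold changes per type were positive in WT and 48.9% to 54.5% in *Tet2*-KO mice. The log2 fold change of *Lbr*, the lamin B receptor of the inner nuclear membrane, was positive in 16 of 16 types in both genotypes, and that of *Ncapd2*, a condensin subunit, in 15 and 16. *Birc5* (survivin) was positive in 2 and 1 of 16, *Cks2*, a small partner of CDK1, in 2 and 2, and *Cdk1* in 2 and 1. *Mki67* was positive in 8 and 5 of 16 and was not called with IL1β in any type.

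**Figure D2:**
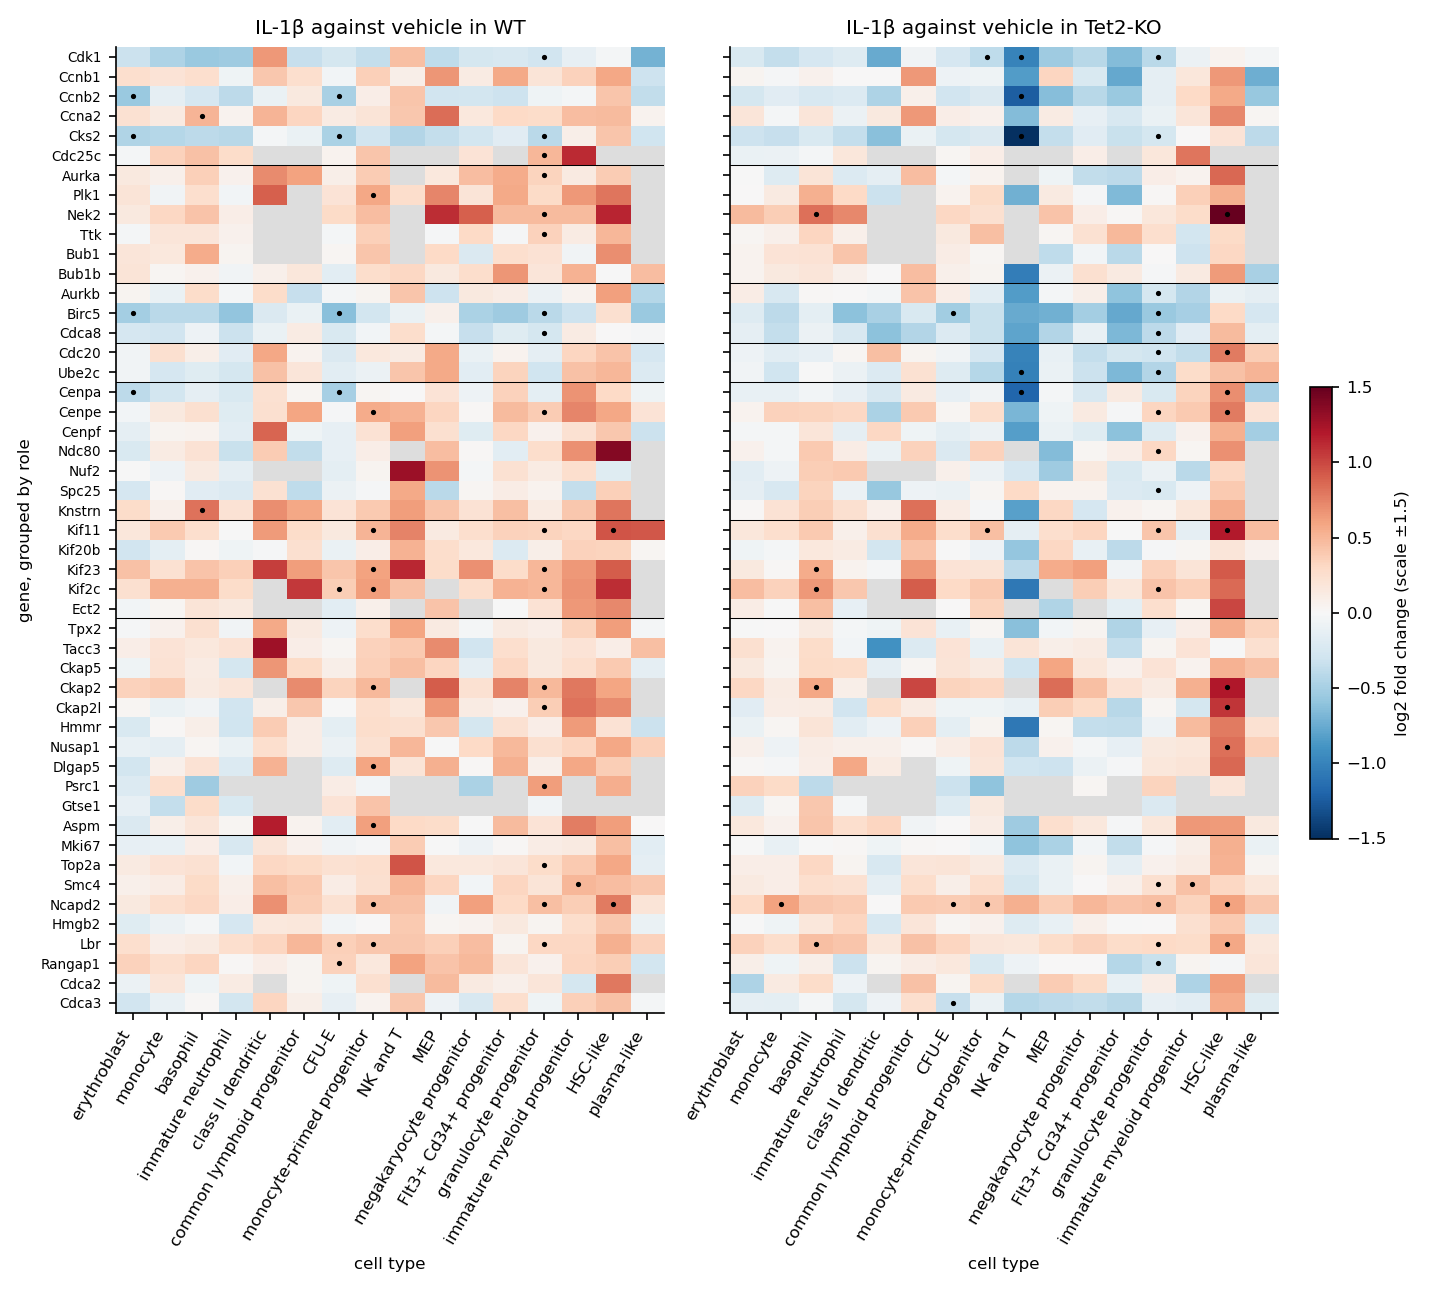
Log2 fold change with IL1β against vehicle for the 49 genes, grouped by role from cyclins at the top to chromosome structure at the bottom, in 16 cell types (horizontal axis), in WT mice on the left and *Tet2*-KO mice on the right. Red is higher and blue lower with IL1β, grey was not tested, and dots mark the 44 calls of each genotype. The kinesin rows are mostly red and the rows of *Birc5* and *Cks2* mostly blue.

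In HSC-like cells most members had a higher level with IL1β, and few passed the test. Of 47 members tested, 44 had a positive log2 fold change in each genotype, with medians of 0.50 in WT and 0.56 in *Tet2*-KO mice, against 0.01 over all genes in both. Calls were 2 in WT mice (4.26%), where 5.14% of all genes were called, and 10 in *Tet2*-KO mice (21.3%), where 11.7% were, every one higher. The summed level was 5370 ± 1113 CPM in WT mice with vehicle (SD, n = 4, from 4160 to 6358) and 8125 ± 499 CPM with IL1β (7567 to 8781), and the 2 groups did not overlap. It was 4193 ± 1598 CPM in *Tet2*-KO mice with vehicle (2432 to 6249) and 5784 ± 966 CPM with IL1β (4708 to 7009), which overlapped. The share of cells with at least 10 of their 1500 UMIs on the 49 genes went from 20.7 ± 9.3% to 41.3 ± 6.5% in WT mice and from 13.9 ± 9.6% to 22.8 ± 5.4% in *Tet2*-KO mice. Unthinned, these shares were 32.1%, 47.7%, 25% and 31.9%, at mean depths of 2780, 2899, 2803 and 3264 UMIs. The thinned shares overlapped in both genotypes, with WT vehicle mouse 1 at 32.6% and WT IL1β mouse 4 at 31.8%. By the looser hashtag rule the summed level in WT mice was 5796 ± 838 CPM with vehicle and 7507 ± 1473 CPM with IL1β. It was 4002 ± 1267 and 5618 ± 1066 CPM in *Tet2*-KO mice. The WT thinned shares by that rule ran from 11.6% to 31.9% with vehicle and from 20.2% to 46.7% with IL1β.

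*Kif11*, the kinesin-5 motor that pushes spindle poles apart (chr19:37376403-37421859, GRCm38, plus strand), was the member with the lowest adjusted p in HSC-like cells of both genotypes. Its level, in CPM scaled by TMM factors, was 129, 17.8, 78.3 and 113 in WT mice 1 to 4 with vehicle and 155, 249, 187 and 181 with IL1β. The levels in *Tet2*-KO mice were 25.5, 57.1, 62.3 and 59.2 with vehicle and 163, 95, 114 and 117 with IL1β. Neither genotype's groups overlapped. WT mice had 50, 20, 208 and 171 cells in this gate with vehicle and 187, 28, 139 and 23 with IL1β. *Tet2*-KO mice had 208, 34, 274 and 183 with vehicle and 31, 280, 152 and 188 with IL1β. The smallest sum of a mouse was 56491 UMIs, so the low values in mice with few cells lie near the floor. The log2 fold change was 0.94 ± 0.25 (SE) in WT mice (edgeR adjusted p = 0.019) and 1.18 ± 0.25 in *Tet2*-KO mice (adjusted p = 0.00215).

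*Ncapd2*, a condensin I subunit that compacts mitotic chromosomes (chr6:125168007-125191701, GRCm38, minus strand), stood at 91.2, 53.3, 65.8 and 87.5 CPM in WT mice with vehicle and at 145, 104, 120 and 157 CPM with IL1β, without overlap. The *Tet2*-KO groups overlapped, at 49.2, 85.7, 67.0 and 57.0 CPM with vehicle and 96.1, 75, 92.9 and 114 CPM with IL1β. The rise on the log2 scale was 0.78 ± 0.21 in WT (edgeR adjusted p = 0.0236) and, with *Tet2* deleted, 0.60 ± 0.20 (adjusted p = 0.0427). The other calls in *Tet2*-KO mice were *Nek2* (1.61 ± 0.50), a centrosome kinase, *Ckap2* (1.20 ± 0.36) and *Ckap2l* (1.07 ± 0.32), spindle-pole proteins, *Nusap1* (0.83 ± 0.27), a microtubule bundler, *Cenpe* (0.77 ± 0.25), a kinetochore motor, *Cdc20* (0.77 ± 0.26), *Cenpa* (0.70 ± 0.23), the centromeric histone, and *Lbr* (0.59 ± 0.17), with edgeR adjusted p from 0.0234 to 0.0494.

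The classical markers of division had the same sign without reaching the threshold. *Mki67* was at 448, 195, 290 and 434 CPM in WT HSC-like cells with vehicle and at 448, 498, 475 and 567 CPM with IL1β, a log2 fold change of 0.45 ± 0.25 (edgeR adjusted p = 0.327). *Top2a*, which encodes the topoisomerase that untangles sister chromatids, was at 471, 409, 402 and 518 CPM with vehicle and at 680, 663, 819 and 494 CPM with IL1β in WT mice (0.58 ± 0.20, adjusted p = 0.0933). Both overlapped between the groups. The log2 fold changes in *Tet2*-KO mice were 0.53 ± 0.24 for *Mki67* (adjusted p = 0.144) and 0.53 ± 0.19 for *Top2a* (adjusted p = 0.0748).

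**Figure D3:**
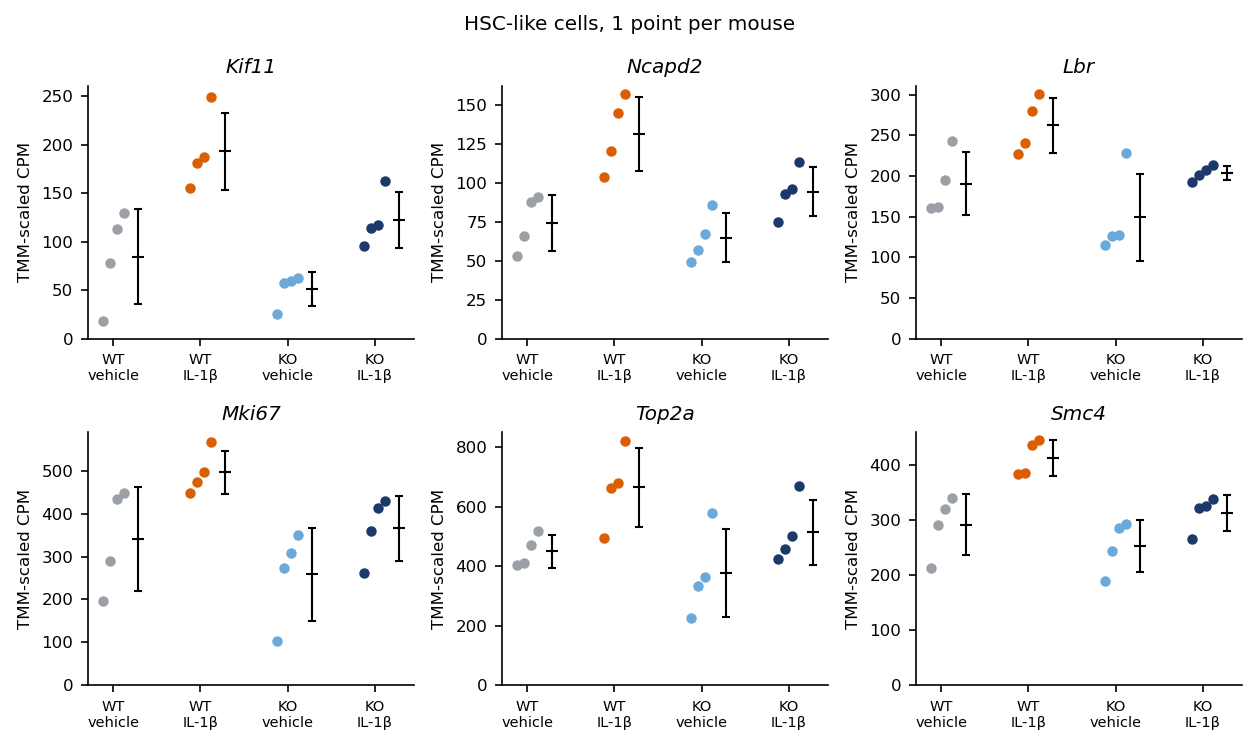
Levels of 6 of the genes in HSC-like cells in TMM-scaled CPM (vertical axes, from 0), 1 point per mouse in order of value within its group, with the mean and SD of 4 mice beside it. *Kif11* is higher in every mouse with IL1β than in any vehicle mouse of its genotype, while *Mki67* and *Top2a* overlap.

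The values in HSC-like cells moved with single mice and settings. The median log2 fold change in WT mice was 0.18 under a stricter gate and 0.31 both under the looser hashtag rule and with libraries as replicates. In *Tet2*-KO mice it was 0.81 under the stricter gate, 0.41 under the looser hashtag rule and 0.34 without vehicle mouse 1. In *Tet2*-KO mice 1 call was left without vehicle mouse 1 or 3, and 3 without IL1β mouse 3 or 4, while DESeq2 made 3 and the looser hashtag rule 6. In WT mice no call was left without IL1β mouse 3 or vehicle mouse 3, or with libraries as replicates, 1 was left without IL1β mouse 1 or under the stricter gate, 2 were made under the looser hashtag rule, and 4 were made without vehicle mouse 4 or without *Tet2*-KO vehicle mouse 1. Markers of other cells moved in the same gate. The summed level of 7 markers of Flt3+ Cd34+ multipotent progenitors went from 1415 to 2020 CPM in WT and from 1538 to 2544 CPM in *Tet2*-KO mice, and *Sox4* was called in both. *Procr*, an HSC marker, was called lower in *Tet2*-KO mice. In WT mice 7 megakaryocyte markers went from 480 to 1635 CPM (*Pf4*, *Rap1b* and *Itga2b* called), 7 neutrophil markers from 396 to 2365 CPM (*S100a8* and *Ngp* called), 4 plasma-like markers from 79.1 to 765 CPM (*Jchain* called) and 8 monocyte markers from 97.1 to 259 CPM (*Ms4a6c* called). Single WT mice with IL1β ran from 803 to 2856, 658 to 5545, 103 to 2613 and 168 to 432 CPM in that order. Erythroblast markers, 8 genes, went from 141 to 724 CPM in WT (89.6 to 2118 with IL1β) and from 234 to 425 CPM in *Tet2*-KO mice, with *Hbb-bt* called higher in both. The part of these markers in the result was not tested.

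In granulocyte progenitors, the best-covered gate with 15101 assigned cells, members were called in both directions, as were all genes. Of 49 tested in WT mice, 14 were called up and 4 down (36.7%, against 29.7% of all genes, 13.5% up and 16.2% down), and in *Tet2*-KO mice 7 up and 9 down (32.7%, against 40.2% of all genes, 19.3% up and 21.0% down), with medians of 0.18 and 0.02 on the log2 scale. *Birc5*, the survivin subunit of the chromosomal passenger complex (chr11:117849251-117855743, GRCm38, plus strand), was lower in both. It was at 246, 210, 199 and 213 CPM in WT mice with vehicle and at 179, 171, 136 and 167 CPM with IL1β. *Tet2*-KO mice had 198, 231, 226 and 248 CPM with vehicle and 142, 123, 166 and 182 CPM with IL1β. No groups overlapped within a genotype, and the log2 fold changes were -0.41 ± 0.11 (edgeR adjusted p = 0.0114) and -0.56 ± 0.11 (adjusted p = 0.000699). The WT call was lost without IL1β mouse 3 or vehicle mouse 1.

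*Kif11* went the other way in the same cells. It was at 64.7, 74.3, 71.8 and 83.8 CPM in WT mice with vehicle and at 88.9, 84.5, 87.4 and 113 CPM with IL1β. *Tet2*-KO mice had 62.5, 61.2, 68.5 and 61.5 CPM with vehicle and 94.4, 72.7, 83.3 and 87.3 CPM with IL1β. The groups did not overlap in either genotype, although the call in WT mice was lost without IL1β mouse 4 or vehicle mouse 1 or 3. The log2 fold changes were 0.33 ± 0.10 (edgeR adjusted p = 0.0219) and 0.41 ± 0.10 (adjusted p = 0.0029). *Ncapd2* rose by 0.46 ± 0.11 and 0.45 ± 0.10, and *Kif2c*, a kinesin that dismantles microtubules, by 0.50 ± 0.12 and 0.43 ± 0.11, on the log2 scale and without overlap in either genotype.

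*Cenpe*, the kinetochore motor, was also higher in both genotypes (0.38 ± 0.10 and 0.32 ± 0.09 on the log2 scale). *Cdk1* was lower in both (-0.29 ± 0.10 and -0.40 ± 0.10), and so was *Cks2* (-0.40 ± 0.10 and -0.26 ± 0.10). In WT mice the larger changes upwards were *Psrc1* (0.63 ± 0.19) and *Kif23* (0.50 ± 0.17), a spindle protein and the motor of the cleavage furrow. *Aurka*, the spindle-pole kinase, rose in WT mice (0.34 ± 0.09). In *Tet2*-KO mice the ubiquitin carrier *Ube2c* (-0.44 ± 0.15), the anaphase activator *Cdc20* (-0.30 ± 0.11) and the passenger kinase *Aurkb* (-0.26 ± 0.08) fell. These edgeR adjusted p-values ran from 0.0035 to 0.0442. When each of the 16 mice was left out in turn, the call of *Cdk1* in WT mice was lost 10 times, that of *Kif23* 5 and that of *Psrc1* 2 times. Among the *Tet2*-KO calls, *Cks2* was lost 6 times, *Cdc20* 4 times and *Ube2c* and *Aurkb* 1 time each.

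The calls differed in gene length by direction. Of all members called with IL1β in any type, 22 were called only higher and 9 only lower, with median summed exon lengths of 4919 and 2946 bases. The remainder were 3 genes called both ways, *Cdc20*, *Cenpa* and *Rangap1*, and 15 never called. Over all genes, those called higher were the longer in 32 of 32 type and genotype combinations, and the rank correlation of log2 fold change with exon length was 0.24 to 0.37 over all genes and 0.00 to 0.42 over the members, as a description of genes that share libraries. With each mouse's trend over length removed, a check chosen after the data were seen, 44 calls in WT and 35 in *Tet2*-KO mice were made, of which 32 in WT and 26 in *Tet2*-KO mice were among the 44 calls of each genotype above. Lower calls in *Tet2*-KO mice went from 17 to 10. *Kif11* and *Cks2* in WT granulocyte progenitors did not keep their calls, while *Birc5* kept its call in both genotypes.

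**Figure D4:**
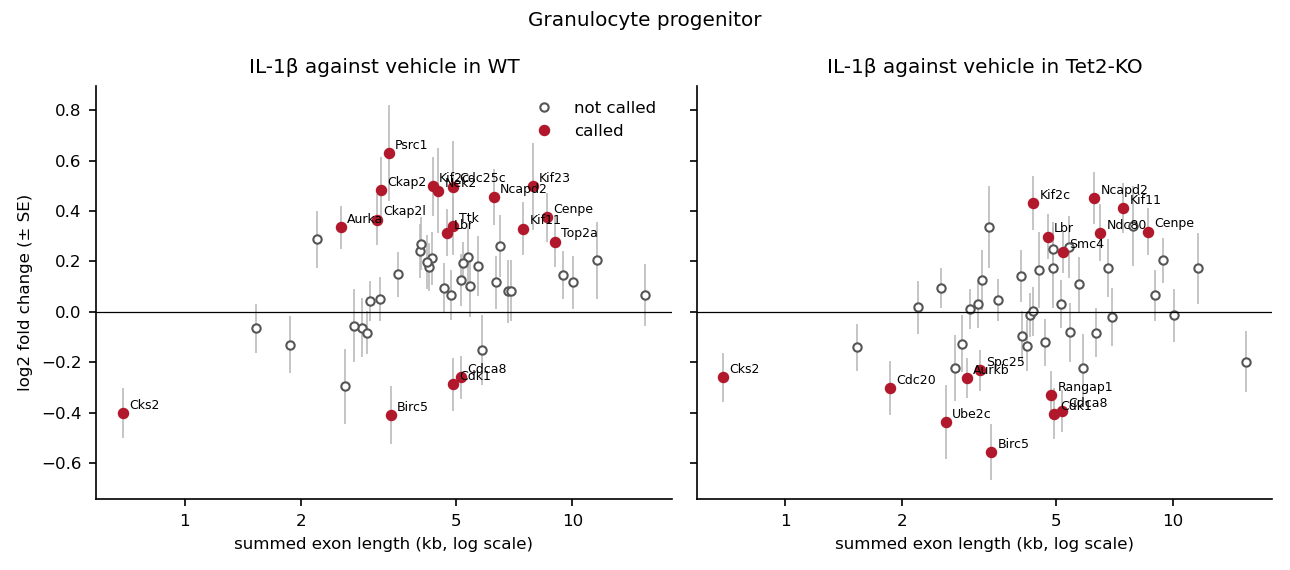
Log2 fold change with IL1β in granulocyte progenitors (vertical axis, with SE) against summed exon length in kilobases (horizontal axis, log scale) for the 49 genes, in WT mice on the left and *Tet2*-KO mice on the right. Filled points were called. *Birc5* and *Cks2* lie below 0 and *Kif11*, *Ncapd2* and *Kif2c* above it in both genotypes.

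With the library as a random effect in limma-voom, the calls in granulocyte progenitors fell from 18 to 5 in WT and from 16 to 10 in *Tet2*-KO mice, and with libraries as replicates to 2 and 5. The looser hashtag rule made 18 in each genotype, 13 up and 5 down in WT and 9 up and 9 down in *Tet2*-KO mice. In WT mice, 10 calls were left there without IL1β mouse 3 or vehicle mouse 3 and 7 without vehicle mouse 1. The gate's own markers moved too. Its 7 markers summed to 9865 CPM with vehicle and 8082 CPM with IL1β in WT mice, and to 10402 and 9640 CPM in *Tet2*-KO mice, with *Elane* and *Ms4a3* called lower and Gstm1 higher in both genotypes, Cebpe lower in WT and Gfi1 higher in *Tet2*-KO mice. Of 7 HSC markers tested, 6 were called higher in WT and 3 in *Tet2*-KO mice, and all 6 erythroblast markers tested were called lower in *Tet2*-KO mice, from a sum of 99.7 to 33.9 CPM. The summed level of the 49 genes went from 6262 ± 353 to 7427 ± 654 CPM in WT and from 6047 ± 368 to 6570 ± 379 CPM in *Tet2*-KO mice, at mean depths of 7297, 6907, 8190 and 9243 UMIs. The part of depth and of the markers in these differences was not tested.

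*Birc5* was also lower in the red cell lineage. In CFU-E it was at 350, 339, 269 and 269 CPM in WT mice with vehicle and at 206, 187, 207 and 188 CPM with IL1β. *Tet2*-KO mice had 263, 307, 309 and 325 CPM with vehicle and 215, 178, 229 and 221 CPM with IL1β. The groups stood apart in both genotypes, with log2 fold changes of -0.62 ± 0.10 (edgeR adjusted p = 0.000385) and -0.52 ± 0.10 (adjusted p = 0.00238). *Ccnb2* (-0.49 ± 0.11), *Cks2* (-0.47 ± 0.10) and *Cenpa* (-0.50 ± 0.12) were lower as well in WT mice, where *Kif2c*, *Lbr* and *Rangap1* were higher by 0.34 to 0.37.

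These were 7 calls of 49 in WT mice (14.3%, against 17.0% of all genes) and 3 in *Tet2*-KO mice (6.12%, against 15.8%). Erythroblasts gave the same 4 lower genes in WT mice and no other (8.16%, against 10.1% of all genes), namely *Ccnb2* (-0.56 ± 0.12), *Birc5* (-0.51 ± 0.10), *Cks2* (-0.45 ± 0.11) and *Cenpa* (-0.40 ± 0.12). *Birc5* was at 592, 595, 506 and 447 CPM with vehicle and at 369, 398, 355 and 373 CPM with IL1β. In *Tet2*-KO erythroblasts, where 3 mice with IL1β had enough cells, it was at 441, 435, 530 and 542 CPM and then at 426, 446 and 408 CPM, which overlapped (-0.20 ± 0.11, edgeR adjusted p = 0.295), and no member was called there, against 5.77% of all genes. Under the looser hashtag rule, with more erythroid cells, calls numbered 18 in WT CFU-E (7 above), 13 in *Tet2*-KO CFU-E (3 above), 9 in WT erythroblasts (4 above) and 6 in *Tet2*-KO erythroblasts. By the main hashtag rule the mixing was largest in erythroblasts in both libraries whose mice differed in *Xist*. There *Xist* was found in 98.1% of cells of WT vehicle mouse 1 and in 50.0% of the 34 of mouse 2, which stood at 10.95% under the looser rule. It was found in 52.2% of erythroblasts of WT IL1β mouse 3 and 93.3% of mouse 4, and mouse 3 stood at 26.6% under the looser rule. Without WT vehicle mouse 2, 7 calls in CFU-E and 3 in erythroblasts were left in WT mice. Without WT IL1β mouse 3, 4 calls in CFU-E and 2 in erythroblasts were left in WT mice, and *Tet2*-KO CFU-E had 1 to 7 calls as vehicle mice were left out. Without *Tet2*-KO vehicle mouse 1, erythroblasts of that genotype had 4 calls.

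Among myeloid precursors, 10 of 49 members were called in WT monocyte-primed progenitors (20.4%, against 14.0% of all genes), all higher, from 0.41 for *Lbr* to 0.63 for *Kif2c* on the log2 scale, with *Aspm* (0.62 ± 0.19), *Plk1* (0.57 ± 0.19) and *Cenpe* (0.56 ± 0.14) among them. *Kif11* was at 96.1, 115, 94.0 and 98.2 CPM with vehicle and at 128, 140, 150 and 141 CPM with IL1β, without overlap (0.51 ± 0.13, edgeR adjusted p = 0.0098), and was the one call of the 10 that held whichever mouse was left out. In *Tet2*-KO mice *Kif11* (0.45 ± 0.12) and *Ncapd2* (0.40 ± 0.13) were higher and *Cdk1* (-0.38 ± 0.13) lower, 3 of 49 (6.12%, against 20.6% of all genes). Monocytes of *Tet2*-KO mice had 1 call, *Ncapd2* (0.60 ± 0.13), where 9.37% of all genes were called, and those of WT mice none, where 7.71% were. The gate for immature myeloid progenitors had 1 in each genotype, the condensin gene *Smc4* (0.50 ± 0.15 and 0.44 ± 0.15), against 6.52% of all genes in WT and 11.6% in *Tet2*-KO mice. Its call was lost in 5 of 16 omissions of a single mouse in WT and in 14 of 16 in *Tet2*-KO mice.

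In basophils the calls were all higher, 2 of 49 in WT (4.08%, against 5.98% of all genes) and 5 in *Tet2*-KO mice (10.2%, against 9.66%), which is near the share over all genes. In WT mice they were *Knstrn* (0.81 ± 0.17), whose product helps align chromosomes, and *Ccna2* (0.51 ± 0.15). *Knstrn* was at 59.0, 29.4, 40.3 and 52.8 CPM with vehicle and at 87.4, 97.7, 87.1 and 76.6 CPM with IL1β in WT mice, without overlap. In *Tet2*-KO mice they were *Nek2* (0.82 ± 0.18), *Kif2c* (0.65 ± 0.17), *Ckap2* (0.58 ± 0.16), *Kif23* (0.56 ± 0.17) and *Lbr* (0.45 ± 0.12). *Nek2* was at 18.3, 13.3, 18.5 and 13.7 CPM with vehicle and at 31.5, 29.8, 30.7 and 25.3 CPM with IL1β in *Tet2*-KO mice, again apart. A different response of the 2 genotypes is tested by the interaction below, which called none of these genes.

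Between genotypes with vehicle, edgeR called 0 of 719 member tests, against 0.0267% of all genes. At an unadjusted p under 0.05 there were 1 higher and 44 lower in *Tet2*-KO mice (6.26%, against 4.14% of all genes), and DESeq2 called 0. The sign leaned lower, with 542 of 719 log2 fold changes below 0 and a median of -0.12, which was -0.045 without *Tet2*-KO vehicle mouse 1. In HSC-like cells 46 of 47 were below 0 (median -0.52, 20 with unadjusted p under 0.05, all lower, against 1.91% of all genes, smallest adjusted p = 0.885 by edgeR). *Kif11* was lower by 0.92 ± 0.27 there in log2 units, without passing the threshold (edgeR adjusted p = 0.885). The median there was -0.29 without *Tet2*-KO vehicle mouse 1 and -1.03 under a stricter gate. That gate made 5 calls in HSC-like cells, all lower, and edgeR without the filter on low counts made 2.

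Between genotypes with IL1β, 13 member tests were called (1.81%), against 0.164% of all genes, and all 13 were lower in *Tet2*-KO mice and in the NK and T gate. At an unadjusted p under 0.05 there were 1 higher and 145 lower over the 16 types (20.3%, against 8.23% of all genes). DESeq2 also made 13 calls and the looser hashtag rule 16, all lower. Over the 719 tests, 611 log2 fold changes were below 0, with a median of -0.22. In HSC-like cells all 47 were below 0 (median -0.48, 14 with unadjusted p under 0.05, against 2.94% of all genes lower at that p), yet edgeR and DESeq2 called 0, at a smallest edgeR adjusted p of 0.709. In Flt3+ Cd34+ progenitors all 46 were below 0 (median -0.51), and edgeR called 0 with 23 at an unadjusted p under 0.05, against 3.52% of all genes lower at that p. The mice with IL1β in this comparison are those of the IL1β comparisons above.

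In the NK and T gate, 2.92% of all genes were called between genotypes with IL1β, and 13 of 38 members, all lower. Its name is that of the gate only. In WT mice with IL1β its 7 own markers summed to 3133 CPM, against 18045 CPM for 7 neutrophil and 3109 CPM for 8 erythroblast genes. *Mki67* was at 893, 921, 753 and 863 CPM in WT mice with IL1β and at 218, 472, 375 and 384 CPM in *Tet2*-KO mice with IL1β, a log2 fold change of -1.22 ± 0.27 (edgeR adjusted p = 0.017). *Top2a* was at 818, 1448, 1113 and 1153 CPM against 262, 633, 616 and 433 CPM (-1.21 ± 0.25, adjusted p = 0.0127). Neither gene's groups overlapped. With vehicle, *Mki67* was at 709, 681 and 576 CPM in the 3 WT mice with enough cells and at 251, 466, 794 and 720 CPM in *Tet2*-KO mice, which overlapped.

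*Ube2c*, the ubiquitin carrier of the anaphase-promoting complex, was at 498, 342, 465 and 657 CPM in WT and at 112, 191, 255 and 99.4 CPM in *Tet2*-KO mice with IL1β (-1.67 ± 0.33, edgeR adjusted p = 0.00887). *Cenpf*, a large kinetochore protein (chr1:189640606-189688086, GRCm38, minus strand), was at 226, 237, 460 and 431 CPM against 62.4, 114, 165 and 114 CPM (-1.73 ± 0.35, adjusted p = 0.00917). Both stood apart between the genotypes. The others were *Hmmr*, *Aspm*, *Ccnb2*, *Kif11*, *Tpx2*, *Cks2*, *Cenpa*, *Nusap1* and *Smc4*, from -1.58 to -0.92. The summed level was 11417 ± 344 CPM in WT and 5792 ± 1985 CPM in *Tet2*-KO mice with IL1β, against 7886 ± 974 CPM (n = 3) and 7169 ± 1920 CPM with vehicle. Thinned shares of cells with at least 10 UMIs were 58.5%, 19.1%, 29.8% and 30.5% in the same order, and 68.8%, 19.3%, 37.0% and 33.6% unthinned.

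**Figure D5:**
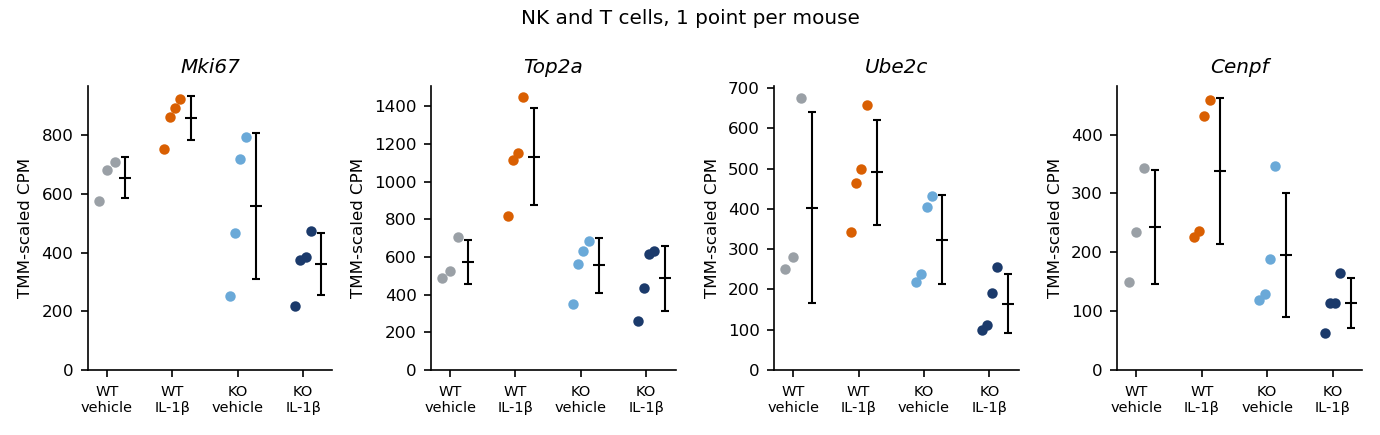
Levels of *Mki67*, *Top2a*, *Ube2c* and *Cenpf* in the NK and T gate in TMM-scaled CPM (vertical axes, from 0), 1 point per mouse in order of value within its group, with the mean and SD beside it (3 mice for WT with vehicle, 4 for the other groups). With IL1β every WT mouse lies above every *Tet2*-KO mouse for all 4 genes.

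These were few and shallow cells, 10 to 52 per WT mouse and 29 to 122 per *Tet2*-KO mouse with IL1β, at mean depths of 3059 and 1701 UMIs. The gate differed in content between the genotypes with IL1β. Its 7 own markers summed to 3133 CPM in WT and 6164 CPM in *Tet2*-KO mice, with *Ccl5*, *Nkg7* and *Cd3g* called higher in *Tet2*-KO. Markers of some other cells stood higher in WT mice, at 2120 against 226 CPM for 7 basophil genes (*Mcpt8* and *Prss34* called), 3109 against 916 CPM for 8 erythroblast genes (*Hbb-bs* called), 2833 against 1363 CPM for 9 CFU-E genes (*Car2* called), and 18045 (354 to 64796) against 4226 CPM (520 to 11559) for 7 neutrophil genes. Others stood higher in *Tet2*-KO mice, at 2464 against 1540 CPM for 8 monocyte genes (*Ly6c2* called) and 716 against 548 CPM for 8 class II dendritic cell genes (none called). The basophil difference was not particular to IL1β. With vehicle these genes stood at 1236 CPM in WT and 74.7 CPM in *Tet2*-KO mice, with *Mcpt8* and *Prss34* called there too. The part of these cells in the lower mitotic genes was not tested. A gate with stricter marker limits made 1 call and libraries as replicates 3, at medians over the members tested of -0.83 and -1.02 against -1.10. No call was left without *Tet2*-KO IL1β mouse 1, 5 without WT IL1β mouse 1 or 3, and 6 without *Tet2*-KO IL1β mouse 2 or 4.

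Within *Tet2*-KO mice, IL1β against vehicle called 5 of 38 members in NK and T cells (13.2%, against 12.8% of all genes), all lower, *Cks2* (-1.49 ± 0.25), *Ccnb2* (-1.24 ± 0.36), *Cenpa* (-1.19 ± 0.30), *Ube2c* (-1.01 ± 0.33) and *Cdk1* (-1.0 ± 0.33), with edgeR adjusted p from 0.00188 to 0.0469. These counts were unstable, from 1 to 12 as single mice were left out. The stricter gate made 1 call, with the median over the members at -0.18 against -0.62, and the looser hashtag rule made 5. The content of the gate changed in the same comparison. Summed CFU-E markers went from 3819 to 1363 CPM (6 of 8 tested called lower), erythroblast markers from 3262 to 916 CPM (3 of 6 called lower) and monocyte markers from 1285 to 2464 CPM (3 of 8 called higher), and their part in the result was not tested. In WT mice edgeR called 0 of 38 there, against 1.43% of all genes, with 36 positive, a median of 0.41 and 5 higher at an unadjusted p under 0.05 (5.78% of all genes), and DESeq2 called 1.

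The interaction tests whether IL1β changed a gene differently in *Tet2*-KO and WT mice. EdgeR and DESeq2 called 0 of 719 member tests, against 0.00173% of all genes, with 5 higher and 38 lower at an unadjusted p under 0.05 (5.98%, against 4.44% of all genes). The smallest adjusted p was 0.204, for the spindle factor *Tacc3* in class II dendritic cells. In NK and T cells 37 of 38 were below 0, with a median of -1.05 (-0.62 under the stricter gate), and 20 had an unadjusted p under 0.05, against 5.13% of all genes lower at that p. *Top2a* there was at -1.15 ± 0.37 (edgeR adjusted p = 0.267) and *Ube2c* at -1.43 ± 0.47 (adjusted p = 0.267). In HSC-like cells the median was 0.05, with 0.58 under the stricter gate and -0.21 to 0.25 as single mice were left out. Without the filter on low counts edgeR called 2 member tests, *Tacc3* in class II dendritic cells (-2.21, adjusted p = 0.0401) and *Ube2c* in NK and T cells (-1.41, adjusted p = 0.0229). With the filter, no member's difference in response was detected at this depth and number of mice.

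Other genes of the same machinery were followed as 4 lists, without the fit that removes the trend over gene length. Of 23 regulators of mitotic transcription, in 291 tests, IL1β gave 9 calls upwards and 1 downwards in WT mice (3.44% of tests, against 9.18% of all genes) and, with *Tet2* deleted, 16 upwards and 6 downwards (7.56%, against 12.6%). *Cdkn1a*, which encodes the CDK inhibitor p21, rose by 2.48 ± 0.39 in WT and 1.31 ± 0.30 in *Tet2*-KO HSC-like cells (edgeR adjusted p = 0.000217 and 0.00484). The pocket protein genes *Rb1* (0.46 ± 0.14 and 0.46 ± 0.13) and *Rbl2* (0.56 ± 0.14 and 0.67 ± 0.13), which restrain E2F, were higher in granulocyte progenitors of both genotypes.

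Of 17 genes of the anaphase-promoting complex and its inhibitors, in 245 tests, 4 were called higher and 24 lower in WT mice (11.4%, against 9.18% of all genes) and 0 and 20 in *Tet2*-KO mice (8.16%, against 12.6%). In granulocyte progenitors, where 29.7% and 40.2% of all genes were called, the ubiquitin carrier *Ube2s* fell by 0.57 ± 0.11 and 0.71 ± 0.11 on the log2 scale, and the small subunits *Anapc11*, *Anapc13*, *Anapc15*, *Anapc16* and *Cdc26* were lower in both genotypes. Over all genes there, median exon lengths were 2680 (WT) and 2889 (*Tet2*-KO) bases for lower calls, and 5919 and 5995 bases for higher calls. The part of length in the calls of this list was not tested. Of 9 cohesin, securin and separase genes, in 131 tests, 6 calls were up and 1 down in WT (5.34%, against 9.18%), and 14 up and 1 down in *Tet2*-KO mice (11.5%, against 12.6%). The cohesin subunit *Rad21* was higher in granulocyte progenitors (0.41 ± 0.08 and 0.37 ± 0.08), and securin, *Pttg1*, lower (-0.31 ± 0.10 and -0.32 ± 0.09).

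Of 25 further mitosis genes, in 362 tests, 13 calls were up and 9 down in WT (6.08%, against 9.18%), and 14 up and 19 down in *Tet2*-KO mice (9.12%, against 12.6%). *Tubb4b*, a tubulin, fell by 0.54 ± 0.12 in WT and 1.05 ± 0.12 in *Tet2*-KO granulocyte progenitors on the log2 scale. Between genotypes with IL1β, 3 of the 362 tests were called (0.83%, against 0.164% of all genes), all in NK and T cells and all lower in *Tet2*-KO mice, namely *Smc2* (-0.95 ± 0.26), *Ncapg* (-1.37 ± 0.33) and *Prc1* (-1.56 ± 0.35). None of the 4 lists had a call between genotypes with vehicle or for the interaction by edgeR.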

How the data were processed

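Bone marrow depleted of lineage-positive cells was profiled with 10x 3′ libraries (v3.1 chemistry). The submitters' processing notes name Cell Ranger (3.1.0), Seurat (3.2.3) and the mouse genome build mm10. The deposited gene and hashtag files hold raw UMI counts per barcode, with no normalization, and every column of them belonged to a labelled library. Barcodes with under 750 genes or over 10% mitochondrial UMIs were removed. Hashtags were classified in each library with HTODemux at its defaults (Seurat 5.3.0, quantile 0.99), and cells with both hashtags were dropped as doublets (4.15%). Doublets of 1 mouse were not removed in the main analysis. HTODemux gave no call for 34.9% of cells. The looser rule, a mixture on the ratio of the 2 hashtag counts at a posterior of 0.95, assigned 87192 cells, and 56873 of 56893 cells assigned by both rules had the same mouse, although cells called to WT IL1β mouse 3 were mixed in *Xist* in every type, as were erythroblasts called to WT vehicle mouse 2. By HTODemux, other types called to WT vehicle mouse 2 held *Xist* in 0% (monocyte-primed progenitors) to 19.2% (immature myeloid progenitors) of cells.

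Cell types were gated on marker genes, none of them a member, and the first matching gate was taken for the 24901 cells (26.2%) that passed several. The gates were loosened after the data were seen. UMIs were summed per mouse and type (at least 10 cells per mouse, at least 3 mice in every group), filtered with filterByExpr, scaled by TMM and tested with edgeR 4.0.16 (R 4.3.3), all 4 groups in 1 fit. The test was tried on simulated counts, where smaller changes and the shallow HSC-like sums were recovered less often. The simulated mice were independent, with no shared libraries and no mixed hashtag calls, so that trial does not cover these features of the data. Mice are the replicates, but each pair shared a library, and p-values cannot separate mouse from library. Eosinophil-lineage and plasmacytoid dendritic cells had too few mice to test.

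DESeq2 1.42.0, limma 3.58.1 (voom), other scalings, filters, gates, hashtag rules, libraries as replicates, a replicate block and omission of each mouse were tried. Terms for *Xist* status (sex is not in the labels) and for gene length, the cut of 10 UMIs and the sum without *Hmgb2* were added after the data were seen. The members and lists were chosen with earlier results of these data known. Genes named by a rule are 22 listed members in any type, the 10 largest called changes per comparison and type, and 5 per direction by p in HSC-like cells. Others, such as *Gtse1*, *Spc25* and *Tacc3*, were named after their values were seen. Levels were computed in Python 3.11.15. The result for 1 marker gene is not reported here.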

Additional observations from a re-analysis of the deposited data

Results flagged for a closer look

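In groups of 4 mice, a single mouse far from the other 3 was looked for in 147 groups of values and found in 10, where chance gives about 1 in 20. Dixon's ratio was used, the gap to the nearest other mouse as a share of the group's range. In plasma-like cells the summed level of the 49 genes was 5714 CPM in *Tet2*-KO IL1β mouse 3 against 2614 to 2939 CPM in the others. It was 4121 CPM in *Tet2*-KO vehicle mouse 3 against 2948 to 3058 CPM, and 2861 CPM in WT IL1β mouse 2 against 4824 to 5037 CPM.

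*Kif11* was far from the others in HSC-like cells of *Tet2*-KO vehicle mouse 1 (25.5 CPM against 57.1 to 62.3), and in granulocyte progenitors of *Tet2*-KO vehicle mouse 3 (68.5 CPM against 61.2 to 62.5) and WT IL1β mouse 4 (113 CPM against 84.5 to 88.9). *Kif2c* was low in granulocyte progenitors of *Tet2*-KO vehicle mouse 4 (20.8 CPM against 24.7 to 24.9). *Lbr* was high in HSC-like cells of *Tet2*-KO vehicle mouse 2 (229 CPM against 115 to 127). *Nek2* in basophils was low in WT IL1β mouse 3 (28.8 CPM against 32.9 to 33.8) and in WT vehicle mouse 2 (9.81 CPM against 22.9 to 25.1). The last value rests on 30 cells, in a gate whose smallest sum per mouse was 106170 UMIs, and lies near the floor. No cause of these outlying values was tested.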

How the results depend on the processing

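For IL1β against vehicle in WT mice (44 calls), limma-voom with the library as a random effect gave 29 calls, libraries as replicates 8, the looser hashtag rule 76, that rule with the length trend removed 75 and that rule with the replicate block 78, and leaving out 1 mouse gave 20 to 54. In *Tet2*-KO mice (44 calls), libraries as replicates gave 11, the looser hashtag rule 68, that rule with the replicate block 70, and leaving out 1 mouse 24 to 62. For *Tet2*-KO against WT with vehicle (0 calls), no filter on low counts gave 2 and the stricter gate 5. With IL1β (13 calls), no filter gave 27, libraries as replicates 3, the stricter gate 1 and leaving out 1 mouse 0 to 17. For the interaction (0 calls), no filter gave 2. The cause of these shifts was not tested, except that libraries as replicates leave fewer samples by construction. The shares of all genes called under the same settings are not set beside these counts. The share of HSC-like cells with at least 2 member UMIs (75.6%) was 88.9% without thinning, 96.2% thinned to 3000 UMIs, 90.6% at 1 UMI, 46.6% at 4 and 24.7% at 10. Thinning leaves out cells below its depth. The share at 3000 UMIs therefore describes only the deeper cells of a gate with a median of 2755.5 UMIs.

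The replicate block on the number of the pool gave 48, 45, 0, 12 and 0 calls in the 5 comparisons, and samples with the same number did not deviate together (median correlation of their deviations from -0.0097 to 0.0162 over 4 cell types), so the numbers were not taken as pairs. Over 184 single values under all settings there were 5321 checks. Of these, 4663 kept direction and side of the threshold, 631 lost the threshold, 26 passed it and 1 reversed, *Cdc20* in granulocyte progenitors of *Tet2*-KO mice with IL1β, at 0.00874 on the log2 scale under the looser hashtag rule with the length trend removed. Few cells per mouse limit the HSC-like, NK and T and dendritic gates.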
